A study of Mus musculus with 6 samples.

Results

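The 10 genes described here encode core proteins of the basement membrane or proteins that bind to it: the laminin chains Lama1, Lama5, Lamb1 and Lamc1, the collagen IV chains Col4a1 and Col4a2, the linker nidogen (Nid1), the heparan sulfate proteoglycan perlecan (Hspg2), the collagen-binding glycoprotein Sparc and fibronectin (Fn1). They were chosen by name as basement membrane genes, and all 10 were found among the 32285 genes of the count matrices. Messenger RNA was counted in single cells by droplet 3' sequencing (10x Genomics) in mouse embryos at 6 stages around implantation, named by embryonic day: E3.5 and E4.5, E4.75 and E5.0, then E5.25 and lastly E5.5. Each stage was 1 library made from pooled embryos, so no difference between stages or cell classes has a replicate check, and no test across samples was made. B6SJLF1/J mothers and B6CBAF1/J fathers gave all of the embryos. For both stages before E4.75, superovulated mothers 4 weeks of age were used and embryos were flushed out, and the 4 later stages were dissected from the uterus after natural mating of mothers 7 weeks of age. A 20 µm filter was used on the cell suspensions of E5.5 and of both flushed stages, and not on the others. Stage therefore cannot be told apart from collection method between E4.5 and E4.75, or from the filter between E5.25 and E5.5.

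A basement membrane is a thin sheet of matrix on which epithelia rest. Laminins are trimers of an alpha, a beta and a gamma chain that assemble on the cell surface, collagen IV forms a covalent network beneath them, and nidogen and perlecan connect both. In the implanting mouse embryo the primitive endoderm gives rise to visceral endoderm, which covers the epiblast, and to parietal endoderm, which migrates over the inner face of the trophoblast and lays down the thick Reichert's membrane there. Laminin containing the Lama1 chain is a main component of that membrane, whereas the Lama5 chain is widespread in later epithelial basement membranes.

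The libraries held 42328 barcodes and 391375562 UMIs (molecules counted once each), from 1788882 at E3.5 to 112702098 at E5.0. After filtering 20820 cells remained, between 88 at E3.5 and 8103 at E5.5, with a median depth between 5104 UMIs at E5.5 and 31093 at E4.75. At E5.5 68.1% of the barcodes held fewer than 1500 detected genes and were left out. Any pair of libraries shared at most 11 cell barcodes, 47 over all pairs. Cells were clustered without the 10 genes, and classes were named from other marker genes. The parietal endoderm-like class was 1 cluster in which all 8 parietal markers were at least 2-fold above the mean of the 25 clusters. Those markers (Thbd, Plat, Snai1, Pth1r, Stra6, Fst, Srgn and Sox7) summed to between 1802 and 3671 CPM (a gene's UMIs per 1000000 UMIs of the class in that library) in that class and to between 687 and 1301 CPM in the endoderm-like class, which pools primitive and visceral endoderm, in the same 4 libraries. The endoderm markers were also high in the parietal class, at 14023 CPM at E4.75 and 7517 CPM at E5.5 against 16569 and 11864 CPM in the endoderm-like class. At E4.75 the split between both classes depended on the clustering. The 250 parietal endoderm-like cells there became 21 when doublets were kept, 15 when the matrix genes were allowed into the clustering and 0 when each library was clustered alone.

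The genes lie on 8 chromosomes of the mouse genome (GRCm38), and each value below counts UMIs over the whole gene. Lama1 is at chr17:67697259-67822647 on the plus strand, Lama5 at chr2:180176373-180225859 on the minus strand, Lamb1 at chr12:31265234-31329644 on the plus strand and Lamc1 at chr1:153218922-153332786 on the minus strand. Nid1 is at chr13:13437551-13512269 (plus), Sparc at chr11:55394500-55423183 (minus), Hspg2 at chr4:137468769-137570630 (plus) and Fn1 at chr1:71585520-71653200 (minus). Col4a1 (chr8:11198423-11312826, minus) and Col4a2 (chr8:11312805-11449287, plus) point away from each other, and their annotated first exons overlap. The sequence shown first is that shared start, on the plus strand, because both collagen genes had nearly the same profile over all cell classes. The other sequences are the stretches just upstream of Lama5 and Lamb1, written 5' to 3' on each gene's own strand, since these laminin chains differed in opposite directions between the endoderm classes. Capitals mark the GC box GGGCGG or its reverse complement.
Col4a1 and Col4a2 shared start, chr8:11312805-11312826: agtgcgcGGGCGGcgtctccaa
Lama5 upstream, chr2:180225860-180226109: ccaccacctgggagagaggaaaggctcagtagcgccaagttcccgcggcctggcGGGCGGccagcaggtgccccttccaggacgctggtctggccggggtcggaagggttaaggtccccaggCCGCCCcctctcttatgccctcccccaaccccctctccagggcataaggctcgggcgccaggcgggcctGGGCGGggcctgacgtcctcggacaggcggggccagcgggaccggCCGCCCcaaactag
Lamb1 upstream, chr12:31265043-31265233: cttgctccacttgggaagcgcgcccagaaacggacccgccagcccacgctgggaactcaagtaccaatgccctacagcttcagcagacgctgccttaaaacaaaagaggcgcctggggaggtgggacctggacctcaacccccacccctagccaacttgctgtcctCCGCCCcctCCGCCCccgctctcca

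The upstream sequences are from the RefSeq promoter table (GRCm38.p6), in which 7 of the 10 genes had an entry; Lama1, Lamc1 and Fn1 had none. The shared start of the collagen genes, 22 bases long, was read from their entries there. The Lama5 stretch had 4 GC boxes and 72.4% G or C, and the Lamb1 stretch had 2 GC boxes and 63.9% G or C. A GC box on either strand was found in the 250 upstream bases of 5 of the 7 genes and of 33.0% of 32526 promoters in the table. The letters AGATAA, a form of the GATA factor motif, were found in 0 of the 7 and in 9.97% of all promoters, and ACAATG, a form of the SOX factor motif, in 0 of the 7 and in 10.5%. These counts describe letters in these windows only.

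The Lama1 chain gene had its highest levels in parietal endoderm-like cells. Its level there was 4213 CPM at E4.75 (95% Poisson interval 4167 to 4260) and 4412, 5278 and 4455 CPM in the libraries after it, against 570, 167, 173 and 161 CPM in the endoderm-like class of the same libraries. The parietal value was above the endoderm value in all 4 libraries, by 7.39-fold at E4.75 and by 26.4-, 30.5- and 27.6-fold at the later stages. Intervals here and below are exact Poisson or binomial and cover counting error only, not differences between embryos.

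**Figure D1:**
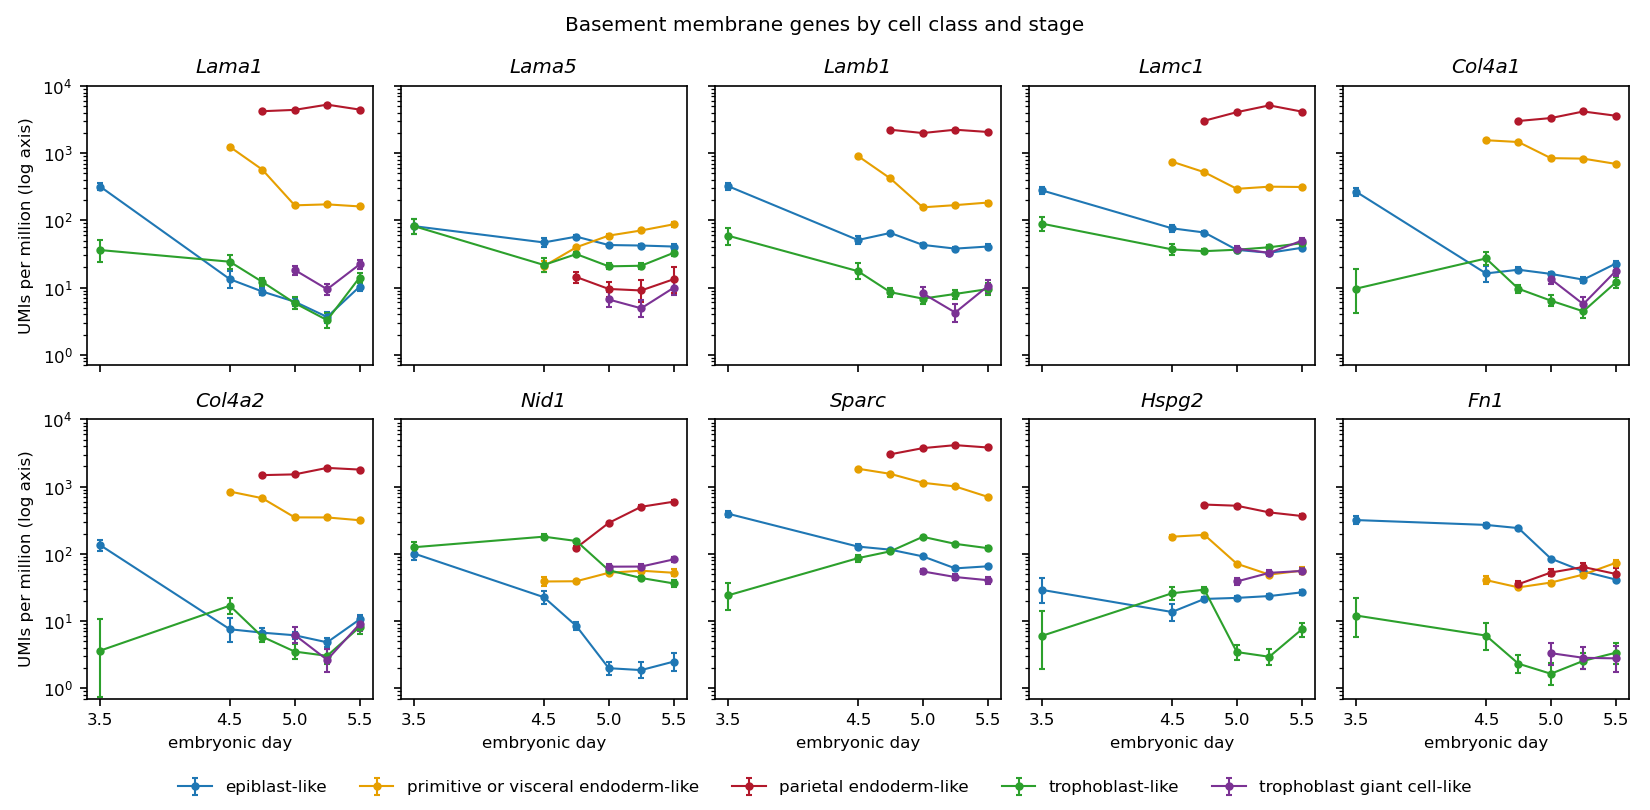
Level of each of the 10 genes in CPM (log axis) against embryonic day, 1 panel per gene, with 1 line per cell class and bars for the exact 95% Poisson interval. Lama1, Lamb1 and Lamc1 are highest in the parietal endoderm-like class, between 1994 and 5278 CPM, where Lama5 is between 9.05 and 14.3 CPM.

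The partner chains followed Lama1 across the classes. Lamb1, the beta chain, was at 2234, 1994, 2236 and 2069 CPM in parietal endoderm-like cells from E4.75 to E5.5 and at 421, 156, 169 and 184 CPM in endoderm-like cells, a 5.31- to 13.3-fold difference. Lamc1, the gamma chain, was at 3043, 4079, 5145 and 4163 CPM against 520, 295, 317 and 314 CPM, a 5.85- to 16.2-fold difference. For both chains the parietal value was the higher in each library.

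Lama5, the alternative alpha chain, had the opposite order. It was at 14.3, 9.53, 9.05 and 13.3 CPM in parietal endoderm-like cells, from 108, 61, 30 and 22 UMIs, and at 39.8, 59.3, 70.7 and 87.4 CPM in endoderm-like cells. The parietal to endoderm ratio was 0.360 at E4.75 and 0.161, 0.128 and 0.152 later. Lama5 was the one gene of the 10 below the endoderm level by at least 2-fold in every library.

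Against these, both collagen IV chains differed less. Col4a1 was at 3015, 3333, 4174 and 3610 CPM in the parietal class and at 1466, 844, 830 and 693 CPM in the endoderm class, a 2.06-fold difference at E4.75 and 5.21-fold at E5.5. Col4a2 gave ratios of 2.21, 4.37, 5.47 and 5.67. Sparc, at 3028 to 4145 CPM in the parietal class, gave 1.96, 3.28, 4.12 and 5.42. Perlecan (Hspg2) was at 541, 519, 413 and 366 CPM in the parietal class, 2.83- to 8.43-fold above endoderm.

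Nid1 was the member whose parietal level differed most between stages. It was at 123, 288, 501 and 596 CPM from E4.75 to E5.5 in parietal endoderm-like cells, against 39.0, 52.2, 56.0 and 52.2 CPM in endoderm-like cells. The E5.25 level was 4.08-fold the E4.75 level, and Nid1 was the one gene of the 10 past 2-fold between those stages in the parietal class, where 4.31% of tested genes were 2-fold higher and 3.68% lower. Fn1 was low in both classes, at 35.3 to 63.7 CPM in the parietal and 31.6 to 73.4 CPM in the endoderm class from E4.75 on, and its ratio lay between 0.684 and 1.41.

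A gene was counted as called when it differed at least 2-fold and reached 10 CPM in the higher class. Of the 10 genes 7 were called higher and 1 lower in parietal endoderm-like cells at E4.75, where 4.42% of all tested genes were higher and 7.58% lower. At E5.0, E5.25 and E5.5 8 were higher and 1 lower, against 7.48%, 8.64% and 8.32% of all tested genes higher and 10.2%, 11.4% and 11.9% lower. Both classes share a library at each stage, and the parietal class rests on 250, 476, 263 and 361 cells. The Lama1 difference at E5.0 on the log2(CPM + 10) scale was 4.64, and it was 3.89 with doublets kept and 3.87 with the matrix genes allowed in the clustering. At E5.5 it was 4.70, and between 3.72 and 3.84 under 5 other cell groupings.

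Against the remaining classes the parietal levels stood further off. Lama1 was 483-, 717-, 1445- and 432-fold higher in parietal endoderm-like than in epiblast-like cells from E4.75 to E5.5. At each of these stages 8 of the 10 genes were called higher than in epiblast-like cells, where 24.5%, 29%, 30.3% and 28.3% of all tested genes were. Lama5 was called lower at each stage and Fn1 at E4.75, where 17%, 17.3%, 16.7% and 16.8% of all tested genes were lower. Against trophoblast giant cells, which face the parietal endoderm across Reichert's membrane, Lama1 was 242-, 559- and 202-fold higher from E5.0 to E5.5. There 9 members were called higher at each stage, of 9, 9 and 10 tested, and none lower, beside 26.7%, 27.9% and 25.6% of all tested genes higher and 11.7%, 11.7% and 10.3% lower. Lama5 was the member outside that count.

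In single cells the same separation was seen. The 10 genes together made up a median of 1.73% of a parietal endoderm-like cell's UMIs at E4.75 and 2.04%, 2.51% and 2.23% at the later stages. In endoderm-like cells the median was 0.708% at E4.5 and 0.443%, 0.267%, 0.253% and 0.224% from E4.75 to E5.5. At E4.75 124 of 809 endoderm-like cells (15.3%, exact 95% interval 12.9 to 18.0%) lay above the 5th percentile of the parietal class, whereas 12 of 1737, 5 of 1153 and 10 of 1145 did in the 3 later libraries. The classes thus overlapped most in the library where their split depended on the clustering.

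**Figure D2:**
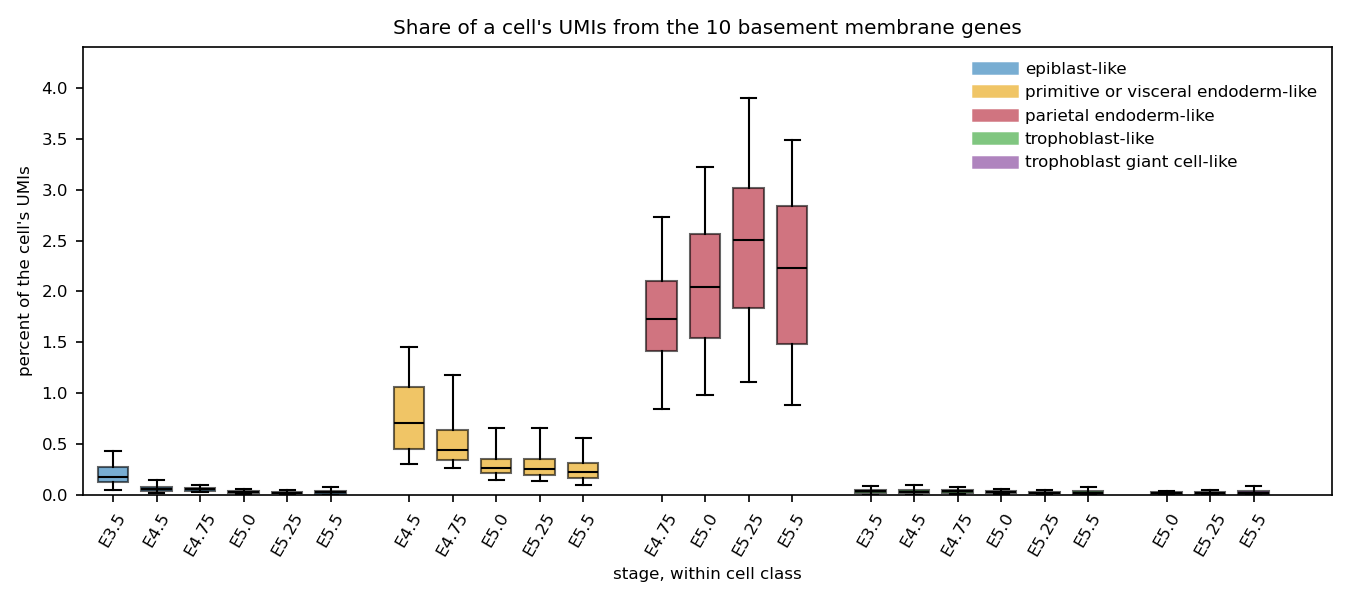
Percent of a cell's UMIs that came from the 10 genes, by cell class and stage; boxes give the median and quartiles over cells and whiskers the 5th and 95th percentiles. Parietal endoderm-like medians lie between 1.73% and 2.51%, above the endoderm-like medians of 0.224% to 0.708%.

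Detection gave the same order once each cell was thinned to 4000 UMIs, with shallower cells left out. Lama1 had a UMI in 99.6%, 100%, 99.6% and 100% of parietal endoderm-like cells and in 60.5%, 34.0%, 36.7% and 31.2% of endoderm-like cells of the same libraries. Lama5 had one in 5.67%, 3.80%, 4.25% and 4.71% of parietal and in 11.4%, 20.6%, 26.2% and 28.8% of endoderm-like cells. For comparison, Lama1 was detected in 3.13% to 4.96% of trophoblast giant cell-like cells at the same thinned depth. Nid1 was detected in 38.1% of parietal endoderm-like cells at E4.75 and in 79.6% at E5.5. At E5.5 the thinning left out 170 parietal and 514 endoderm-like cells.

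The share of alpha chain UMIs that came from Lama1 separated the classes. UMI counts from 3' ends do not scale with gene length, so the share is compared between classes and not read as a ratio of proteins. Lama1 gave 99.7% of the Lama1 and Lama5 UMIs in parietal endoderm-like cells at E4.75 and E5.5 and 99.8% at E5.0 and E5.25. In endoderm-like cells the share was 98.4% in the E4.5 library, and 93.5%, 73.8%, 71.0% and 64.9% in the 4 that followed (at E5.5, exact 95% interval 62.3 to 67.4%). The E5.5 value leaves out a cluster of 1091 cells set apart as mixed, whose best class was endoderm and next trophoblast. That cluster held 2488 Lama1 and 318 Lama5 UMIs, against 899 and 487 in the E5.5 endoderm-like class. The share with its cells counted in was not computed. In epiblast-like cells the Lama1 share was 79.6% at E3.5 and between 7.96% and 22.1% at the later stages. The E3.5 cells of that class also held endoderm genes, as given below. The Col4a1 share of both collagen IV chains lay between 59.4% and 73.3% in every class and stage.

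**Figure D3:**
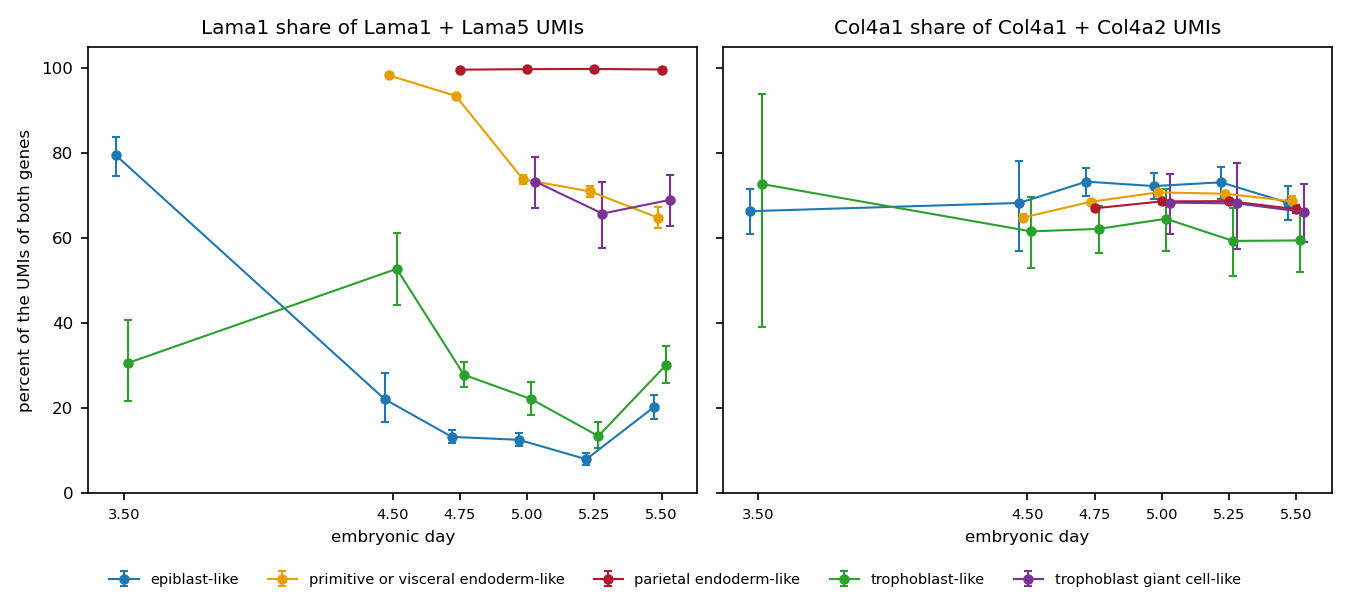
Share of Lama1 in the Lama1 and Lama5 UMIs (first panel) and of Col4a1 in the Col4a1 and Col4a2 UMIs (second panel), in percent, against embryonic day; points are class sums and bars exact 95% binomial intervals. The Lama1 share spans 7.96% to 99.8% between classes, whereas the Col4a1 share stays between 59.4% and 73.3%.

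Within the endoderm-like class, most of the genes were lower at E5.5 than at E4.5. Lama1 was at 1245 CPM at E4.5, then 570, 167, 173 and 161 CPM, and Lamb1 at 909, 421, 156, 169 and 184 CPM. Lamc1 was at 749, 520, 295, 317 and 314 CPM, Col4a1 at 1559, 1466, 844, 830 and 693 CPM and Sparc at 1848, 1549, 1141, 1007 and 706 CPM. These 5 genes had their highest endoderm value at E4.5, and for Lama1 and Lamb1 most of the difference lay between E4.5 and E5.0.

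Lama5 went the other way in that class, at 20.8 CPM at E4.5 and 39.8, 59.3, 70.7 and 87.4 CPM from E4.75 to E5.5, a 4.20-fold difference (95% interval 3.41 to 5.22). Fn1 was 1.81-fold and Nid1 1.35-fold higher at E5.5 than at E4.5. Of the 10 genes 1 was called higher and 7 lower at E5.5, where 17.2% of all tested genes were higher and 12.5% lower. Between E4.75 and E5.25, stages collected in the same way, Lama1 (ratio 0.304), Lamb1 (0.401) and Hspg2 (0.256) were called lower and none of the 10 higher, against 2.73% and 3.85% of all tested genes.

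With the parietal cells counted in, the lower calls in endoderm between E4.5 and E5.5 were lost. For Lama1 the log2 ratio of E5.5 over E4.5 was -2.87, between -1.61 and -2.12 under 6 other cell groupings, and -0.13 with both classes counted together. At E4.5 1 cell was placed in the parietal class, whose markers summed to 1218 CPM in the endoderm-like class there. With endoderm and parietal cells counted together, Lama1 was at 1257 CPM at E4.5 and 1144 at E5.5, Col4a1 at 1560 and 1361, Sparc at 1847 and 1420, Lamb1 at 912 and 616 and Lamc1 at 756 and 1195. None of the 10 was then called lower between E4.5 and E5.5, and Nid1 (38.9 to 177 CPM, 4.55-fold) and Lama5 (20.8 to 70.4 CPM, 3.39-fold) were called higher. The higher Lama5 level was thus seen in both ways of counting. Between E4.75 and E5.25 Hspg2 kept its lower call when counted together, at 262 and 106 CPM. Lama1 (1306 and 973 CPM) and Lamb1 (787 and 493 CPM) lost theirs, and Nid1 (56.0 and 126 CPM) was called higher.

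**Figure D4:**
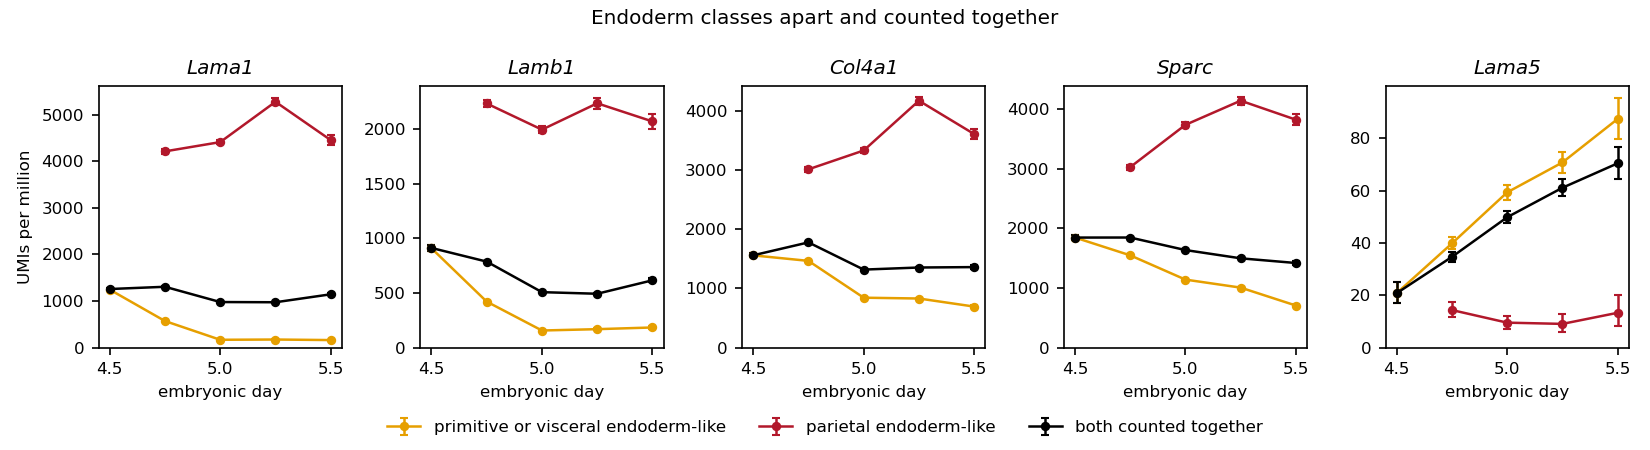
Levels of Lama1, Lamb1, Col4a1, Sparc and Lama5 in CPM (linear axes from 0) by stage in endoderm-like cells, in parietal endoderm-like cells and in both counted together, with exact 95% Poisson intervals. Lama1 is at 1257 CPM at E4.5 and 1144 at E5.5 when both classes are counted together, and at 1245 and 161 CPM in the endoderm-like class alone.

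The endoderm-like class itself was not uniform. At E5.0 it held clusters 4, 6, 7 and 8, and cluster 4 was mainly the E4.75 cluster (780 cells there, 52 at E5.0), with Lama1 at 583 CPM at E4.75 and 439 CPM at E5.0. Clusters 6 and 7 were present at each of the 3 later stages. Both had Ttr and the lipid transport genes Apob, Apoa1 and Apoc2 among their leading genes. Cluster 6 also had Cubn, an uptake receptor gene, and cluster 7 had Lhx1, a transcription factor gene of the anterior visceral endoderm, and Eda. Lama1 was at 257, 247 and 202 CPM in cluster 6 at E5.0, E5.25 and E5.5 and at 59.3, 67.6 and 81.4 CPM in cluster 7. Lama5 had the reverse order, at 43.5, 53.6 and 79.5 CPM in cluster 6 and 84.5, 97.5 and 104 CPM in cluster 7.

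Sparc followed Lama1, at 1416, 1279 and 874 CPM in cluster 6 and 696, 543 and 371 CPM in cluster 7, and Nid1 followed Lama5, at 39.3, 36.7 and 35.9 against 74.9, 88.6 and 81.9 CPM. Col4a1, Col4a2, Hspg2 and Fn1 were also higher in cluster 6 at each stage. The partner chains did not keep the Lama1 order. Lamb1 was at 183, 185 and 171 CPM in cluster 6 against 127, 144 and 205 CPM in cluster 7. Lamc1 was at 330, 322 and 275 against 272, 324 and 388 CPM. Cluster 8, led by Apoa1 and Ttr, had Lama1 at 128 CPM at E5.0 and 127 CPM at E5.25, between clusters 6 and 7. The 10 genes took no part in the clustering, but clusters drawn from the same cells are described here without a test.

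**Figure D5:**
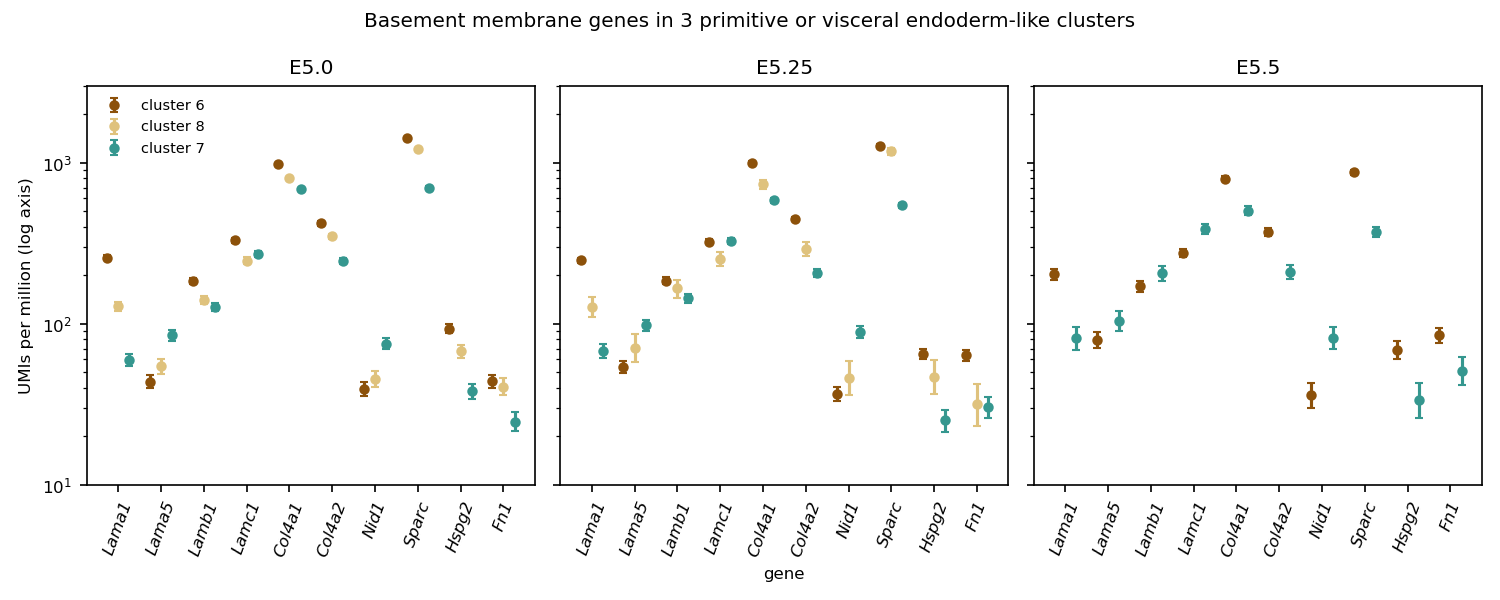
Levels of the 10 genes in CPM (log axis) in endoderm-like clusters 6, 8 and 7 at E5.0, E5.25 and E5.5, with exact 95% Poisson intervals; cluster 8 at E5.5 and cluster 4 are not shown. Lama1 is between 202 and 257 CPM in cluster 6 and between 59.3 and 81.4 CPM in cluster 7, and Lama5 is higher in cluster 7 at each stage.

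Against epiblast-like cells of the same library, Lama1 was 93.4-, 65.3-, 27.2-, 47.4- and 15.7-fold higher in endoderm-like cells from E4.5 to E5.5. Of the 10 genes 7 were called higher in endoderm at E4.5, 8 at E4.75, E5.0 and E5.25 and 9 at E5.5, where 20.8%, 28.1%, 29.7%, 30.6% and 28.6% of all tested genes were. Fibronectin was the exception, called lower in endoderm at E4.5, E4.75 and E5.0, as was Lama5 at E4.5. The background of lower genes was 15.4%, 15.8% and 13.9% at those stages and 13.3% and 13.7% at E5.25 and E5.5, where none of the 10 was called lower.

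Epiblast-like cells had all 10 genes at E3.5, with Lama1 at 319 CPM, Lamb1 at 323, Lamc1 at 279, Col4a1 at 266, Sparc at 395 and Fn1 at 318 CPM. At E4.5 Lama1 was at 13.3 and Col4a1 at 16.2 CPM, and 8 of the 10 genes were called lower than at E3.5 and none higher, where 18.2% of tested genes were lower and 16.4% higher. The 44 E3.5 cells also held endoderm genes, with Gata6 at 359, Gata4 at 185, Pdgfra at 114 and Sox17 at 61.8 CPM beside Pou5f1 at 878 and Nanog at 201 CPM. Their endoderm markers summed to 817 CPM against 170 CPM at E4.5, 7 of the 15 reached 10 CPM, and Apob, Ttr and Afp were at 0. Clustered alone, the E3.5 library gave 26 epiblast-like cells and 20 cells set apart as mixed. The part of this in the E3.5 values was not tested.

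From E4.5 on, Fn1 was the member with the widest range in CPM in epiblast-like cells, at 269, 241, 84.9, 54.7 and 41.4 CPM. Its ratio between E5.5 and E4.5 was 0.154, and Nid1 (22.6 to 2.48 CPM) had 0.110. These 2 genes were called lower and none higher, against 18.1% and 13.0% of all tested genes. Between E4.75 and E5.25 Fn1 and Lamc1 were called lower among 7 tested, against 7.56% of all genes, and none was higher, against 2.31%. Lamc1 was 2.00-fold lower, at the edge of the call, and lost it by median-of-ratios scaling and without mitochondrial and ribosomal protein genes. Fn1 was detected in 62.8%, 59.8%, 26.2%, 20.7% and 14.5% of epiblast-like cells from E4.5 to E5.5, and in 0.639% to 2.59% of trophoblast-like cells. From E4.5 to E5.5 Lama5 was between 40.8 and 57.3 CPM and Lamb1 between 38.0 and 65.0 CPM. Lama1 was at 13.3, 8.73, 6.16, 3.65 and 10.3 CPM, below the tested level from E4.75 to E5.25.

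In trophoblast-like cells Nid1 was the member that stood above epiblast-like cells from E4.5 on. Nid1 was at 125, 180, 155, 56.9, 43.7 and 36.2 CPM from E3.5 to E5.5, 7.96-, 18.4-, 28.7-, 23.5- and 14.6-fold above epiblast-like cells in the 5 libraries from E4.5. Sparc was at 24.1, 86.1, 109, 179, 141 and 121 CPM against 395, 128, 115, 91.6, 60.7 and 65.2 CPM, and was called lower at E3.5 and higher at E5.25. From E3.5 to E5.5, 0, 2, 1, 1, 2 and 1 members were called higher than in epiblast-like cells and 8, 4, 2, 5, 4 and 3 lower, of 10, 10, 9, 8, 8 and 10 tested. Lamb1 and Fn1 were called lower than in epiblast-like cells in every one of the 6 libraries, where the share of all tested genes called lower was 22.5%, 21.6%, 20.4%, 16.7%, 15.5% and 15.6% from the earliest to the latest. Called higher were 14.4%, 16.2%, 16%, 12.3%, 12.4% and 11% of all tested genes. The epiblast-like cells compared at E3.5 also held endoderm genes, as given above.

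Across stages, 4 of 9 tested members were called lower in trophoblast-like cells at E5.5 than at E4.5 and none higher, where 17.0% of tested genes were lower and 12.8% higher. Among these Nid1 had a ratio of 0.201 and Hspg2 of 0.289. No giant cell-like cells were set apart at E4.5, where the trophoblast-like class held the giant cell markers at 423 CPM, against 242 CPM at E5.5 with 931 giant cell-like cells set apart. From E4.75 to E5.25 Lama1, Nid1 (0.282) and Hspg2 (0.100) were lower among 6 tested and none higher, against 9.03% and 4.37%. The giant cell markers were at 841 CPM in the E4.75 class, with 15 giant cell-like cells set apart, and at 296 CPM in the E5.25 class, with 400 set apart. These cell numbers depended on the clustering. With each library clustered alone, 95 giant cell-like cells were set apart at E4.5 and 208 at E4.75. With trophoblast and giant cells counted together, Nid1 kept the lower call in both comparisons (180 to 56.8 CPM from E4.5 to E5.5, 154 to 50.7 CPM from E4.75 to E5.25), as did Lama1 in the second (12.1 to 5.35 CPM). Hspg2 lost it, at 25.8 and 28.8 CPM in the first comparison and 28.9 and 19.5 CPM in the second, and so did Col4a1 and Col4a2 in the first. Counted together, Hspg2 was 1.11-fold higher in the first comparison and 1.48-fold lower in the second. The part of the giant cells in these differences was not tested.

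Giant cell-like trophoblast, the cells that border the maternal tissue, differed from the rest of the trophoblast in perlecan. Hspg2 was at 38.8, 52.0 and 55.6 CPM at E5.0, E5.25 and E5.5 against 3.45, 2.93 and 7.48 CPM, or 11.2-, 17.7- and 7.43-fold. Of the members tested, 3 of 7, 1 of 5 and 2 of 8 were called higher, against 7.00%, 7.21% and 8.66% of all genes, and Lama5 and Sparc were called lower at each stage, against 5.36%, 6.32% and 7.52%. Neither lower call held under every other grouping at E5.5. The Sparc log2 ratio there was -1.38 and became 0.98 at a finer clustering resolution and 0.94 with each library clustered alone. The Lama5 log2 ratio was -1.11 and lost the call under 5 alternatives, where it lay between -0.59 and 0.03. Hspg2 remained higher in each of these settings.

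The genes that process and export collagen were also high in parietal endoderm-like cells. Of 18 genes listed, 3 of 16 tested at E4.75, and then 8 of 16, 10 of 16 and 13 of 17, were called higher than in endoderm-like cells and none lower, with a median log2 ratio of 0.52, 0.84, 1.03 and 1.19 against -0.06, -0.06, -0.04 and -0.05 over all tested genes. Serpinh1, the collagen chaperone, was at 2805, 4394, 4658 and 5297 CPM against 1594, 1354, 1109 and 1038 CPM. P4ha2, a collagen prolyl hydroxylase subunit, was at 222, 267, 314 and 300 CPM against 34.7, 7.89, 5.5 and 4.84 CPM. Plod2, a lysyl hydroxylase of collagen, was at 1000 CPM against 188 CPM at E4.75 and at 1346 against 138 CPM at E5.5.

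Other groups moved in part. The share of all tested genes called in the parietal class, given above, was between 4.42% and 8.64% higher and between 7.58% and 11.9% lower. Of 14 further basement membrane components 7, 7, 7 and 9 were tested from E4.75 to E5.5, of which 1, 2, 2 and 1 were called higher and 3, 3, 3 and 4 lower, with Tinagl1, a matrix glycoprotein, at 76.1 CPM at E4.75 and 312, 514 and 695 CPM afterwards in the parietal class. Of 14 matrix proteases and inhibitors, 8 tested, 4 were higher at each stage, among them Htra1, a secreted protease, Loxl2, a lysyl oxidase, and Timp2, a metalloprotease inhibitor at 63.4 against 0.774 CPM at E5.5, and 1, 1, 2 and 2 were lower. Of 16 matrix receptors, 9 tested at E4.75 and E5.0 and 8 later, none was higher and 1 lower at E4.75 and E5.0, and 1 was higher and none lower later; Itga6, the alpha subunit of a laminin-binding integrin, was at 7.84 CPM in the parietal and 61.0 CPM in the endoderm class at E4.75. Of 12 other laminin, collagen IV and nidogen chains, 2 reached the level tested, Nid2 and Lamb2; 1 was higher at E5.0 and E5.5 and none at the other stages, and none was lower.

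Over 24 sums of class by library, the genes with the profile most like the mean of the 10 were Rab30 (Pearson r = 0.978), Prkcsh (0.974), Ckap4 (0.971), Pdia5 (0.971), Ptpn9 (0.968), Tent5a (0.967), Fndc3a (0.967), Rmc1 (0.965), Ppm1l (0.965) and Sox17 (0.964), among 6641 genes. The sums share libraries and cells of the same stage, so the values describe likeness only. Among the members r with that mean was between 0.967 and 0.978 for Lama1, Lamb1, Lamc1, Col4a1 and Col4a2, and 0.944 for Sparc, 0.858 for Hspg2, 0.546 for Nid1, 0.481 for Fn1 and -0.0196 for Lama5. Each member is itself part of that mean, whereas Rab30 and the other genes named with it are not. Both sets of r are therefore not directly comparable. Col4a1 and Col4a2, which share the start shown above, had r = 0.998 with each other, and Lama1 and Lama5 had r = -0.228.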

How the data were processed

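The authors deposited UMI count matrices from Cell Ranger 7.1.0, per the file headers. Builds named, without a role, in the submitters' processing notes are mm10, GRCm38 and hg38; strand and multimapping settings are not stated there. Cells with at least 1500 genes and at most 15% mitochondrial UMIs were kept, and the highest Scrublet scores (0.8% per 1000 cells, up to 8%) removed. With scanpy 1.11.5, counts were scaled to 10000 per cell, and 2000 variable genes without the 84 listed genes, 30 components and 15 neighbours gave 25 Leiden clusters (resolution 1.0). A cluster was named from at least 3 markers at 2-fold. It was set apart as mixed when the next class scored above 0.30 of the best, a limit set with the clusters in view. Related classes were not counted as the next class: parietal with other endoderm, and giant cells with trophoblast or endothelium. A mixture of such related classes was thus not set apart. Mixed clusters held 26.4% of E5.5 cells. Counts were summed per class (at least 30 cells) to CPM; log2 ratios used CPM + 10, which understates low genes. The 10 genes were all named; other genes were those of at least 50 CPM and 2-fold, at most 6 per list. The members and lists were chosen with earlier results of these data known. Code was tested on simulated data.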

Additional observations from a re-analysis of the deposited data

Results flagged for a closer look

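Several genes were higher at the later stage in one class and lower in another. Because each stage is 1 library, these differences between classes were not tested. Between E4.5 and E5.5, Hspg2 was 1.96-fold higher in epiblast-like cells, and 3.20-fold lower in endoderm-like and 3.46-fold lower in trophoblast-like cells. It was 1.42-fold lower with endoderm and parietal cells counted together, and 1.11-fold higher with trophoblast and giant cells counted together. Fn1 was 1.81-fold higher in endoderm-like and 6.50-fold lower in epiblast-like cells over the same stages.

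Between E4.75 and E5.25, Lama5 was 1.78-fold higher in endoderm-like and 1.58-fold lower in parietal endoderm-like cells. Lamc1 was 1.69-fold higher in parietal endoderm-like cells, 2.00-fold lower in epiblast-like and 1.64-fold lower in endoderm-like cells, but 1.04-fold higher with endoderm and parietal cells counted together. Nid1 was 4.08-fold higher in parietal endoderm-like cells, 4.54-fold lower in epiblast-like and 3.55-fold lower in trophoblast-like cells. Fn1 was 1.55-fold higher in endoderm-like and 1.80-fold higher in parietal endoderm-like cells, and 4.41-fold lower in epiblast-like cells.

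A group of 35 cells at E4.75 named uterine epithelium-like, which enters no comparison, held Lama1 at 284 CPM (95% interval 224 to 355) and Lamc1 at 447 CPM (371 to 534), with Lamb1 at 11.1 CPM. Its own markers summed to 2663 CPM (6 of 8 at 10 CPM or more). The trophoblast markers summed to 2911 CPM (5 of 15 at 10 CPM or more, 7 at 0). The endoderm markers summed to 454 CPM (6 of 15 at 10 CPM or more, 5 at 0). In that library Lama1, Lamc1 and Lamb1 were at 12.2, 34.8 and 8.53 CPM in trophoblast-like cells. They were at 570, 520 and 421 CPM in endoderm-like cells. The part of either class in the levels of this group was not tested.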

How the results depend on the processing

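Alternatives changed the cell filters, doublet removal, clustering, scaling and low-level filter. Of 1937 called values recomputed for single genes, 1862 kept direction and call, 73 lost the call and 2 reversed: the Sparc log2 ratio of giant over trophoblast-like cells at E5.5 was 0.98 at resolution 1.5 and 0.94 with each library clustered alone. Changing the 10 CPM added for log2 ratios, or dropping the low-level filter, could not remove or reverse a call. Values recomputed in those ways were bound to keep theirs and are part of the 1862. Genes higher in giant cells in every library numbered 1, and 3 with a 1000-gene minimum, a 10% mitochondrial limit, resolution 1.5 or libraries alone and 2 at a mixed limit of 0.45. Those lower numbered 2, and 0 under these 5 settings and 1 at resolution 0.6. In endoderm, E5.25 against E4.75 gave 3 lower, but 5 with doublets kept or list genes allowed and 6 (1 higher) with libraries alone; E5.5 against E4.5 gave 2 higher with cells weighted equally. With parietal cells counted together, a choice made after seeing the data, as was the 0.45 limit, these gave 1 higher and 1 lower, and 2 higher and 0 lower. In epiblast, E5.5 against E4.5 gave 0 higher, but 2 with 1000 genes and 1 with 2500 genes, doublets kept or cells weighted equally, and 2 lower, but 4 by median-of-ratios or without mitochondrial and ribosomal genes; E5.25 against E4.75 gave 1 lower by median-of-ratios and 4 with no filter. In trophoblast, E5.25 against E4.75 gave 3 lower, but 6 with 1000 genes or list genes allowed and 7 alone; E5.5 against E4.5 gave 4, but 2 at resolution 1.5 or weighted equally and 1 alone or, chosen after seeing the data, with giant cells counted together. In the parietal class 1 gene was lower with a 10% limit or resolution 0.6. At 2000 UMIs 2 genes, in place of 4, were found in most E5.5 endoderm-like cells. The cause was not tested. At E4.75 parietal endoderm could not be compared with doublets kept, list genes allowed or libraries alone, with fewer than 30 cells. No paired analysis was possible because each stage is 1 library. Depth limits E3.5 (88 cells) and E5.5 (median 5104 UMIs).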

Other observations

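At E5.5 several low levels were above those at E5.25 in classes other than endoderm. Lama1 was 2.82-fold higher in epiblast-like, 4.32-fold in trophoblast-like and 2.34-fold in giant cell-like cells, and Col4a1 was 1.73-, 2.69- and 3.11-fold higher, where 0.585%, 0.284% and 0.612% of all tested genes were 2-fold higher. The summed endoderm markers were also higher, at 188 against 131 CPM in epiblast-like, 66.9 against 37.2 CPM in trophoblast-like and 86.9 against 43.0 CPM in giant cell-like cells. The 18592 E5.5 barcodes with fewer than 1500 genes held Lama1 at 335 CPM and Col4a1 at 382 CPM, against 256 and 301 CPM in the whole library. At E5.25 the 500 such barcodes held these genes at 404 and 455 CPM, against 253 and 353 CPM in that whole library. The part of such RNA in these differences was not tested.

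Genes beside the 10 also differed between stages. Col18a1, another basement membrane collagen, was at 1.26 CPM in epiblast-like cells at E3.5 and 182, 205, 125, 130 and 117 CPM afterwards. In endoderm-like cells Fbln1, a matrix glycoprotein, had 49.2 CPM at E4.5 but 222 CPM by E5.5, and Htra1 had 134 and 8.07 CPM. In trophoblast-like cells Dag1, the dystroglycan receptor for laminin, had 591 CPM at E4.5 but 106 CPM by E5.5. It had 503 CPM in giant cell-like cells at E5.5, which were not set apart at E4.5 when the libraries were clustered together.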
